A study of Mus musculus with 6 samples.

Results

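The genes described here are 10 natural killer (NK) receptor genes and their signalling adaptors, Klrd1, Klrc1, Klrc2, Klrk1, Klrb1c, Klrg1, Klre1, Ncr1, Tyrobp and Hcst. They were taken by gene symbol from a list proposed with earlier results of these data known, and 10 of 10 were listed among the 23284 genes of the data. RNA came from C1498 cells, a murine leukemia line labelled as acute myeloid leukemia, which carried EGFP and had been given intravenously to C57BL/6 J mice. In 3 mice the leukemia had been treated with cytarabine, a nucleoside analogue that blocks DNA synthesis, and 3 mice were controls, which the sample names call PBS and the titles and methods call untreated. GFP+ CD49b+ cells were sorted from the bone marrow of femur, tibia and pelvis on day 21 after cell transfer in both groups, and each mouse gave 1 library. The cells are a single transplanted line in hosts that kept their own immune cells, CD49b is also carried by NK cells, and the dose and days of cytarabine are not stated for the sequenced mice in particular.

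NK cells weigh activating against inhibitory receptors before they kill a target cell. Klrd1 encodes CD94, which pairs with the inhibitory chain NKG2A (Klrc1) or the activating chain NKG2C (Klrc2) and reads the class I molecule Qa-1, while NKG2D (Klrk1) reads stress-induced ligands on target cells. Several activating receptors have no signalling motif of their own and lean on small membrane adaptors, DAP12 (Tyrobp) and DAP10 (Hcst), and several of these receptors are also found on subsets of T cells.

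The values are FPKM, which relate fragments to transcript length and to all mapped fragments and so correct for transcript length and library size. The totals, inferred from the steps between low FPKM values, ranged from 11410000 to 18720000 reads, at which 3 reads on a transcript of 2000 bases are worth 0.089 to 0.146 FPKM. The 6 libraries did not divide by treatment alone. Cytarabine 2, cytarabine 3 and control 1 held 1525.84 to 3284.6 FPKM summed over 7 genes of the colon epithelium, whereas cytarabine 1 held 223.41 FPKM and control 2 and control 3 held 21.45 and 20.74 FPKM, so values are also given within each side of this division. Genes of the heart varied too, from 4.98 FPKM summed over 6 genes in cytarabine 1 to 2454.67 FPKM in control 1, with 669.6 FPKM in cytarabine 3 and 529.62 FPKM in control 2, and their part in the results was not tested. The 11703 genes that averaged 1 FPKM or more were compared between groups with limma on log2(FPKM + 1), and no gene had an adjusted p under 0.05, against 2038 genes at an unadjusted p under 0.05. In the text below, higher or lower "at an unadjusted p under 0.05" is therefore a description that did not survive adjustment over all genes.

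As for the labelled cell type, markers of both lineages were found. Cd3g, which encodes a CD3 chain of the T cell receptor complex, was at 449.4 to 651.9 FPKM. Cd4, Cd8a, Cd8b1, Cd5 and Cd247 were each under 1 FPKM in every library. The receptor chain genes Trac, Trbc1 and Trbc2 were not among the genes of the data. Among myeloid genes, S100a8 of neutrophils was at 83.0 to 792.0 FPKM and Lyz2 of macrophages at 52.8 to 233.1 FPKM. Cpa3 of mast cells and their progenitors was at 333.6 to 479.7 FPKM. The other basophil and mast cell genes listed were low. Fcer1a, Ms4a2 and Gata2 were each under 1 FPKM in every library. Mcpt8 and Prss34 averaged 2.53 and 2.03 FPKM with cytarabine and 2.37 and 2.26 FPKM in controls. On chromosome 6, 5 members lie within 101069 bases of the natural killer gene complex, in the order Klre1, Klrd1, Klrk1, Klrc2 and Klrc1, with the related gene Klrc3 between Klrk1 and Klrc2. In GRCm38 coordinates, Klre1 spans chr6:129577905-129585827 and Klrd1 chr6:129591782-129598775 on the plus strand. On the minus strand, Klrk1 spans chr6:129610323-129623864, Klrc2 chr6:129647496-129660689 and Klrc1 chr6:129666015-129678973. Klrb1c lies at chr6:128778485-128789215 and Klrg1 at chr6:122270596-122282882, both on the minus strand. The rest are on chromosome 7, with Ncr1 at chr7:4337724-4345164 on the plus strand. Tyrobp at chr7:30413760-30417585 on the plus strand and Hcst at chr7:30417712-30419854 on the minus strand face each other with 126 bases between their 3′ ends.

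Several of these proteins are known to signal through short tyrosine-containing stretches of their coding sequence, shown here from the GENCODE transcripts with the tyrosine codons in capitals. The first pair encodes the known immunoreceptor tyrosine-based inhibitory motifs of NKG2A and KLRG1, the next an activating motif with paired tyrosines, and the last the tyrosine motif of DAP10 that binds phosphatidylinositol 3-kinase. The stretches were found by their pattern in the translated coding sequence. The inhibitory pattern is short and also had 1 match each in Klrc2, Klrk1, Klrb1c and Tyrobp and a second match in Klrg1, which are not shown, so a match is a description and not a site.
Klrc1, coding bases 16 to 33: gtcaccTATgcagaactg
Klrg1, coding bases 13 to 30: tctatcTATtcaacacta
Tyrobp, coding bases 274 to 318: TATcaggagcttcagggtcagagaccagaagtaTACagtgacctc
Hcst, coding bases 214 to 225: TACatcaacatg

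The RefSeq table of GRCm38.p6 held a promoter for 7 of the 10 members. The 250 bases before the RefSeq start are shown for the members that were higher with cytarabine at an unadjusted p under 0.05 and have an entry. Klrc1, Klrc2 and Klrk1 lie in the block of 5, and Klrb1c and Hcst lie outside it. Klrc1 is read from chr6:129678974-129679223, Klrc2 from chr6:129660597-129660846, Klrk1 from chr6:129623865-129624114, Klrb1c from chr6:128788642-128788891 and Hcst from chr7:30419855-30420104, all on the minus strand. RefSeq starts can differ from the GENCODE spans given above. By those spans, the Klrb1c stretch, like that of Klre1, lies inside its gene, and the Klrc2 stretch overlaps its gene. Capitals mark TGTGGT, a core bound by RUNX factors, or its complement ACCACA.
Klrc1: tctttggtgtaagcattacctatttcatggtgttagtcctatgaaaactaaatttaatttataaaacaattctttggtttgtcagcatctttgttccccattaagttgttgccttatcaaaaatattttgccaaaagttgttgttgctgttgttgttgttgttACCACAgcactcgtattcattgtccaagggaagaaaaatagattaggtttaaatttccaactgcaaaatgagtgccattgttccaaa
Klrc2: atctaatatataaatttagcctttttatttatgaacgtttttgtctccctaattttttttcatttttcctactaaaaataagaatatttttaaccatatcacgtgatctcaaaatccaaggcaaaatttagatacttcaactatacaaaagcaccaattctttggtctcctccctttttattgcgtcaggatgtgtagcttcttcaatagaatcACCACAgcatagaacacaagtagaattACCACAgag
Klrk1: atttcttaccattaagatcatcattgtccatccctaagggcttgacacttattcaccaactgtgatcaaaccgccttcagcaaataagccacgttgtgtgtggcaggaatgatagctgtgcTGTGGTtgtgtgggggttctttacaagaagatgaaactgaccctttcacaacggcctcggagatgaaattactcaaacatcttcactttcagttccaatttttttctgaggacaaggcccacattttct
Klrb1c: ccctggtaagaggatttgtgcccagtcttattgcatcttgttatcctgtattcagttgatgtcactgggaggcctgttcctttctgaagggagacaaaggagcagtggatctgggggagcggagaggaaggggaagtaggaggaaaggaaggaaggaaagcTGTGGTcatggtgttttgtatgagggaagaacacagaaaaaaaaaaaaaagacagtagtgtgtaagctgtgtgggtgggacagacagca
Hcst: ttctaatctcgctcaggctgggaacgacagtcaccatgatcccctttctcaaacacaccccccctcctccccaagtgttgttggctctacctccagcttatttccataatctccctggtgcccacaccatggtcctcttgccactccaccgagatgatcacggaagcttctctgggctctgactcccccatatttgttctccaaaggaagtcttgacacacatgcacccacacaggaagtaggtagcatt

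The RUNX letters occurred in 6 of 6 receptor promoters with an entry, including Klre1 and Ncr1, and in 0 matches in Hcst. Klrc2 and Ncr1 had 2 matches each and the others 1. Among all 32851 promoters of the same length, 14.05% held these letters on either strand. The ETS letters GGAAGT had 1 match in Klrb1c and 2 in Hcst, against 19.74% of all promoters with at least 1. The T-box letters GTGTGA occurred once, in Ncr1, against 12.29% of all promoters, and the AP-1 letters TGANTCA and the EGR letters GCGTGGGCG, held by 6.75% and 0.54% of all promoters, had 0 matches in the 7. Both strands were searched, 0 matches of one set overlapped a match of another in these promoters, and a match names no bound factor.

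Of the 10 members, 7 passed the filter of 1 FPKM and 3, Klre1, Klrg1 and Ncr1, did not. Of the 7, 6 were higher with cytarabine at an unadjusted p under 0.05 and 0 were lower, where 7.6% of all genes tested were higher and 9.81% lower by the same measure. In the same 6 members the groups did not overlap, with all cytarabine values on top, which held for 10.9% of all genes tested. At an adjusted p under 0.05 the share was 0% of all genes and 0 of the 7 members. The 7 had a median log2 fold change of 0.65, against -0.00153 over all genes tested. The seventh, Tyrobp, had overlapping groups. Each of the 7 averaged more than 1 FPKM in the controls as well. Since the members were proposed with earlier results in view, these counts are a description.

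**Figure D1:**
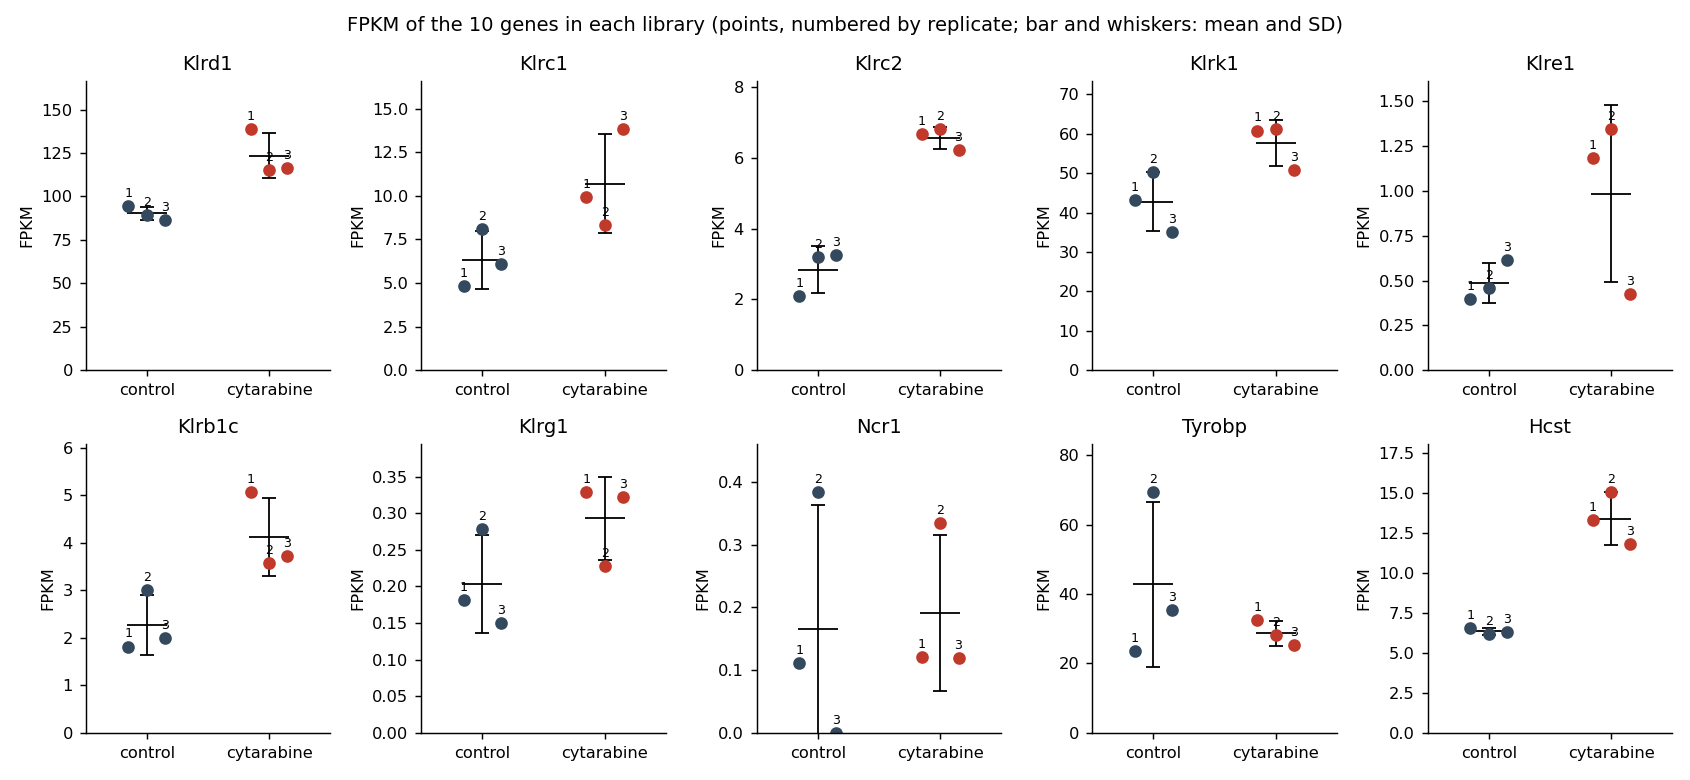
FPKM of each of the 10 genes in each library on a linear axis from 0, with points numbered by replicate, bars at the mean and whiskers of 1 SD; the lower whisker of the Ncr1 control group is cut at 0. Klrd1, Klrc1, Klrc2, Klrk1, Klrb1c and Hcst have all 3 cytarabine points above all 3 control points.

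Klrd1 was the most abundant of the 10 genes, with 138.7, 115.2 and 116.6 FPKM in cytarabine 1, 2 and 3 and 94.5, 89.5 and 86.6 FPKM in control 1, 2 and 3. The groups did not overlap, and cytarabine 1 stood highest. The means were 123.5 ± 13.2 FPKM with cytarabine and 90.2 ± 3.99 FPKM in controls (SD, n = 3 mice each), a ratio of 1.37. The log2 fold change was 0.44 ± 0.09 (SE), with an adjusted p of 0.15 by limma. It was 0.65 on the side with little colon transcript and 0.29 on the other side, where in each case 1 library faces 2. In bulk samples such as these, more cells of a type and more RNA per cell cannot be told apart.

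The inhibitory partner Klrc1 had 9.96, 8.34 and 13.8 FPKM in cytarabine 1, 2 and 3 and 4.83, 8.09 and 6.07 FPKM in control 1, 2 and 3. The gap between the lowest cytarabine and the highest control library was small, 8.34 against 8.09 FPKM. On the log2 scale the change was 0.67 ± 0.23 (SE), with an adjusted p of 0.237 by limma. It was 0.45 and 1.01 on the sides with little and much colon transcript.

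The activating partner Klrc2 had 6.66, 6.81 and 6.22 FPKM in cytarabine 1, 2 and 3 and 2.09, 3.19 and 3.25 FPKM in control 1, 2 and 3. Every cytarabine library was well above the highest control. The means were 6.56 ± 0.307 FPKM with cytarabine and 2.84 ± 0.653 FPKM in controls (SD, n = 3 mice each), a ratio of 2.31. The log2 fold change was 0.99 ± 0.16 (SE), the largest of the 7 members tested, with an adjusted p of 0.135 by limma. With the colon division as a block the adjusted p was 0.0285, in a fit in which 379 genes passed 0.05.

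Transcripts of Klrc1 and Klrc2 share sequence, and 24.7% of the distinct 75-base stretches of Klrc1, the read length, were also in Klrc2, as were 8.32% of those of Klrc2 in Klrc1. Their FPKM values thus carry reads that the counting had to divide, and how it did so is not given in the sources used here. The log2 ratio of Klrd1 to Klrc2 was 4.38, 4.08 and 4.23 with cytarabine and 5.50, 4.81 and 4.74 in controls, so that Klrc2 was nearer to Klrd1 in each cytarabine library. For Klrd1 to Klrc1 the log2 ratio was 3.8, 3.79 and 3.08 against 4.29, 3.47 and 3.83, and these groups overlapped. The ratios were not tested.

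Klrk1, which encodes NKG2D, was the next most abundant receptor, with 60.8, 61.1 and 50.8 FPKM in cytarabine 1, 2 and 3 and 43.2, 50.2 and 35.0 FPKM in control 1, 2 and 3. Cytarabine 3 and control 2 nearly met. The log2 fold change was 0.43 ± 0.15 (SE), with an adjusted p of 0.237 by limma, and it was 0.53 and 0.36 on the sides with little and much colon transcript. Klrk1 stands 11547 bases from Klrd1.

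Klre1, a receptor of the same block that pairs with the Klri proteins, had 1.19, 1.34 and 0.423 FPKM with cytarabine and 0.397, 0.456 and 0.613 FPKM in controls. Cytarabine 1 and 2 were above the controls and cytarabine 3 was among them. Its mean was under the filter, and without the filter the log2 fold change was 0.38 ± 0.21 (SE), with an adjusted p of 0.479 by limma. Its partners were under the filter too, with Klri2 at 0.328, 0.398 and 0.603 FPKM with cytarabine and 0.283, 0.217 and 0.187 FPKM in controls. Klri1, named after its values were seen, was at 0, 0.167 and 0.118 FPKM against 0.111, 0.128 and 0.274 FPKM, with groups that overlapped.

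Klrb1c, which encodes the antigen NK1.1 of C57BL/6 mice, had 5.07, 3.57 and 3.72 FPKM in cytarabine 1, 2 and 3 and 1.82, 3.00 and 2.00 FPKM in control 1, 2 and 3. The groups did not overlap, with control 2 nearest to the cytarabine libraries. On the log2 scale the change was 0.65 ± 0.20 (SE), with an adjusted p of 0.213 by limma. Of its 75-base stretches, 13.2% are shared with Klrb1a, Klrb1b or the overlapping gene model Gm44511, so the value may hold reads of those.

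The receptor genes Klrg1 and Ncr1 were close to the floor. Klrg1, an inhibitory receptor for cadherins, was at 0.329, 0.228 and 0.322 FPKM with cytarabine and 0.181, 0.278 and 0.150 FPKM in controls, about 5.12, 5.18 and 5.20 inferred reads against 3.09, 4.09 and 2.07. Ncr1, the activating receptor NKp46, was at 0.121, 0.335 and 0.119 FPKM with cytarabine and 0.111, 0.384 and 0 FPKM in controls, at most 7.94 inferred reads in a library. The groups overlapped in both genes, and no difference could be seen at this depth. Without the filter the adjusted p by limma was 0.495 for Klrg1 and 0.894 for Ncr1.

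Hcst, the adaptor DAP10 of NKG2D, had 13.3, 15.1 and 11.8 FPKM in cytarabine 1, 2 and 3 and 6.58, 6.19 and 6.28 FPKM in control 1, 2 and 3. The controls lay close together and every cytarabine library was clearly above them. The means were 13.4 ± 1.64 and 6.35 ± 0.204 FPKM (SD, n = 3 mice each), a ratio of 2.11. Its log2 fold change was 0.96 ± 0.10 (SE), and by unadjusted p Hcst ranked 5 of 11703 genes, with an adjusted p of 0.132 by limma. The difference was 0.99 and 0.92 on the sides with little and much colon transcript, and with that division as a block the adjusted p was 0.0268.

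Tyrobp, the adaptor DAP12, had 32.5, 28.1 and 25.4 FPKM in cytarabine 1, 2 and 3 and 23.6, 69.4 and 35.3 FPKM in control 1, 2 and 3. Control 2 stood far above the rest, and the groups overlapped. The log2 fold change was -0.43 ± 0.38 (SE), with an adjusted p of 0.53 by limma. It was -0.593 on the side with little colon transcript and 0.169 on the other side, so the direction differed between the sides. Without control 2 it was -0.02, and without control 1 it was -0.78 at an unadjusted p of 0.0495. Tyrobp is also strongly expressed in macrophages and neutrophils. The summed level of 10 macrophage and monocyte genes was 407.54 FPKM in control 2 and 102.2 to 181.49 FPKM in the other libraries, and that of 9 neutrophil genes was 246.94 to 1480.6 FPKM with cytarabine and 1484.12 to 2093.34 FPKM in controls. Of the neutrophil genes tested, 7 of 9 were lower at an unadjusted p under 0.05, against 9.81% of all genes tested. Mmp8, among the 7, averaged 0.869 FPKM with cytarabine and passed the filter only through the controls. Of the macrophage genes, 0 of 9 reached that level in either direction. The part of these cells in the Tyrobp value was not tested.

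**Figure D2:**
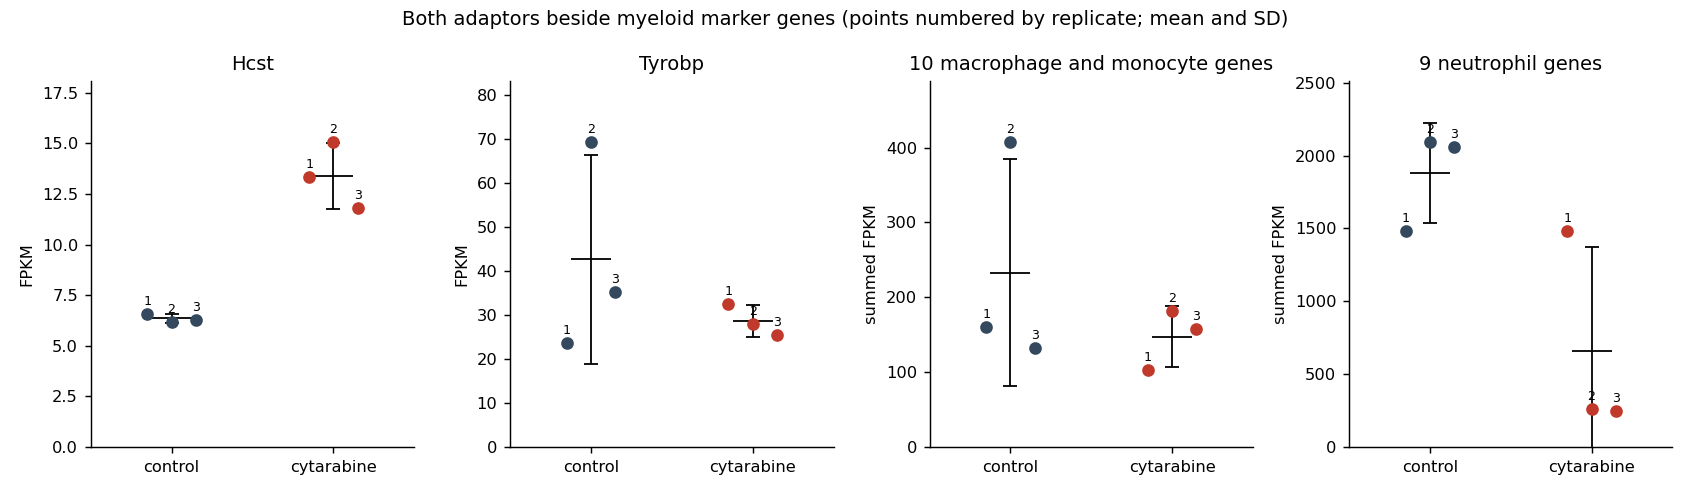
FPKM of Hcst and Tyrobp, and FPKM summed over 10 macrophage and monocyte genes and 9 neutrophil genes, in each library on linear axes from 0; points are numbered by replicate, bars show the mean and whiskers 1 SD, and the lower cytarabine whisker of the neutrophil sum is cut at 0. Hcst is higher in all cytarabine libraries, and control 2 is highest in both Tyrobp and the macrophage sum.

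The balance of the adaptors was also compared, as a ratio of levels per length. The log2 ratio of Tyrobp to Hcst was 1.29, 0.898 and 1.11 with cytarabine and 1.85, 3.49 and 2.49 in controls, and the groups did not overlap. For the receptor Klrk1 to its adaptor Hcst the log2 ratio was 2.19, 2.02 and 2.11 against 2.72, 3.02 and 2.48, so in each cytarabine library Hcst was nearer to Klrk1. These ratios were not tested either.

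How firmly these differences held depended on the gene. The unadjusted p of Klrd1, Klrc2 and Hcst stayed under 0.05 in each alternative fit that tested them, 17, 16 and 17 of them. For Klrk1 it did so in 13 of 17, for Klrb1c in 11 of 16 and for Klrc1 in 11 of 17. Leaving out cytarabine 1 left 3 members at an unadjusted p under 0.05, and leaving out control 3 likewise left 3. Klrc1, Klrk1 and Klrb1c lost it in both cases and also without control 1. Klrk1 lost it as well without cytarabine 2, and Klrc1 without cytarabine 3.

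Other lectin-like receptors of the same families were mostly silent. Of 32 on the list, 25 were in the files and 4 passed the filter. Of these, 2 were higher at an unadjusted p under 0.05 and 0 lower, against 7.6% and 9.81% of all genes tested. Both higher genes encode inhibitory Ly49 receptors for class I molecules. Klra7 (Ly49G) had 3.74, 4.49 and 4.51 FPKM with cytarabine and 1.29, 1.95 and 1.70 FPKM in controls, with a log2 fold change of 0.99 ± 0.16 (SE) and an adjusted p of 0.136 by limma. Klra1 (Ly49A) had 7.24, 8.73 and 10.3 FPKM against 3.61, 4.63 and 4.44 FPKM, with a log2 fold change of 0.89 ± 0.15 (SE). The groups were apart in both genes.

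In the natural killer gene complex, taken from Klrb1c to the last Klra gene on chromosome 6, 43 of 111 annotated genes were in the files and 18 were tested. Besides the members, 13 were tested. Of the 13, 3 were higher at an unadjusted p under 0.05 and 0 lower, against 7.6% and 9.81% of all genes tested. The 3 were Clec2i and both Ly49 genes above. Of these 13, 11 had a log2 fold change above 0, against 49.7% of all genes tested. Neighbours differed: Cd69, an activation antigen, was at 0.06, the autophagy gene Gabarapl1 at -0.0032 and the fungal receptor gene Clec7a at -0.03. Clec2e and BC064078, at 1.47 and 1.43, followed the colon division, and Clec2e, averaging 0.432 FPKM in controls, passed the filter only through cytarabine libraries. These genes were named after their values were seen.

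**Figure D3:**
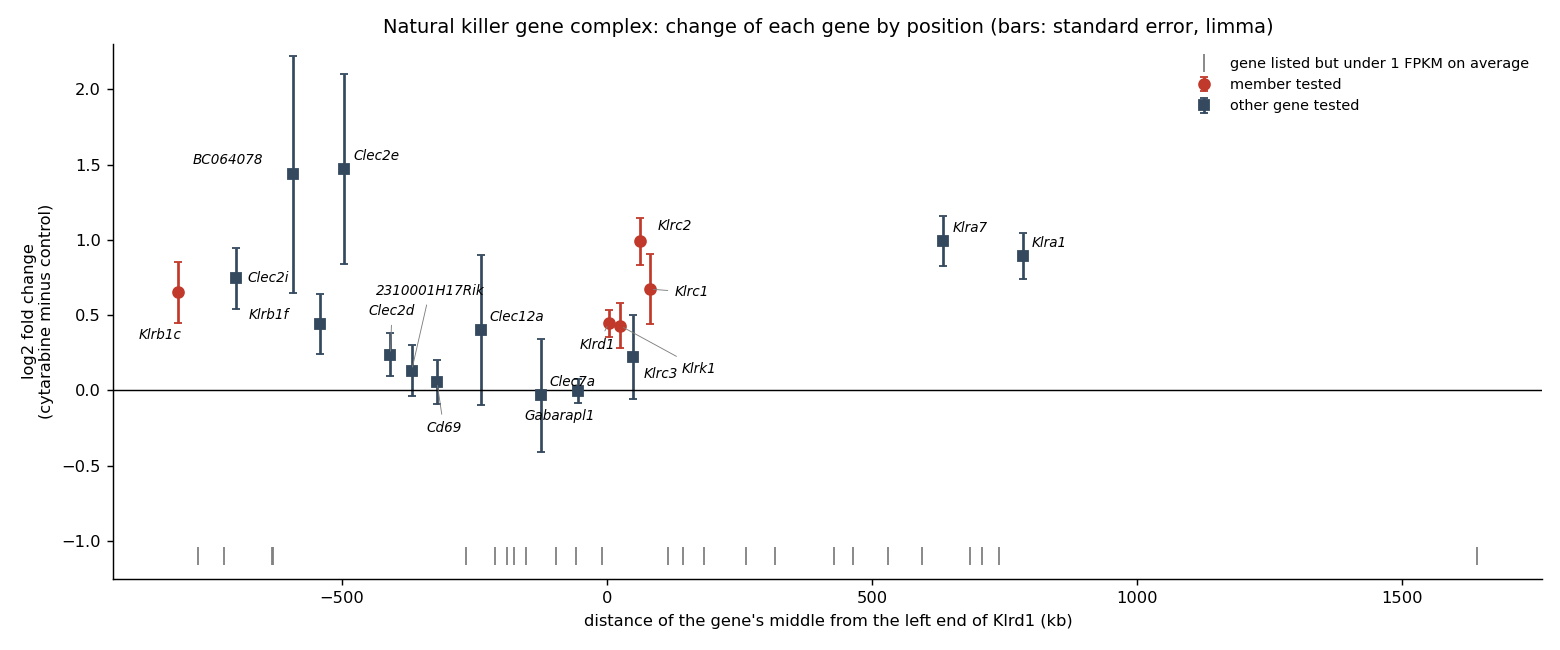
Log2 fold change (cytarabine minus control, with standard error) of the tested genes of the natural killer gene complex against distance in kb from the left end of Klrd1; circles are members, squares other genes, and ticks mark genes under 1 FPKM on average. Members and Ly49 genes lie above 0, while Cd69, Gabarapl1 and Clec7a lie near 0.

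Ligands of these receptors were measured in the same libraries. Of 21 listed, 20 were in the files and 11 were tested. Of the 11, 3 were higher at an unadjusted p under 0.05 and 0 lower, against 7.6% and 9.81% of all genes tested. B2m, the light chain of class I molecules, had 2067, 1997 and 1684 FPKM with cytarabine and 1378, 1593 and 1597 FPKM in controls, for a log2 fold change of 0.33 ± 0.11 (SE). H2-T23, the heavy chain of Qa-1 that CD94 reads, named after its values were seen, had 155.7, 136.6 and 122.6 FPKM against 87.4, 109.6 and 116.1 FPKM, a log2 fold change of 0.41 ± 0.14 (SE). Clec2i, a ligand of Klrb1 receptors, had 7.46, 5.71 and 9.84 FPKM against 3.38, 4.31 and 4.63 FPKM, a log2 fold change of 0.74 ± 0.20 (SE). For the NKG2D ligand gene Ulbp1 the values overlapped, at 69.1, 54.6 and 62.3 FPKM against 53.9, 67.7 and 66.4 FPKM. Not all class I genes were higher. H2-K1 and H2-D1, heavy chains of other class I molecules, were at log2 fold changes of -0.10 and 0.03, with groups that overlapped. They too were named after their values were seen.

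Among 32 signalling genes downstream of these receptors, 29 were tested, with 3 higher and 3 lower at an unadjusted p under 0.05 and a median log2 fold change of -0.01. These counts are close to the 7.6% higher and 9.81% lower among all genes tested, and the values of single genes are given as a description. The largest value was that of Sh2d1b1 (EAT-2), an adaptor of SLAM family receptors, at 14.6, 11.3 and 9.31 FPKM against 3.94, 5.77 and 6.35 FPKM, a log2 fold change of 1.01 ± 0.22 (SE). Bcl10, a scaffold of NF-kB signalling, was at a log2 fold change of 0.37. Lcp2 (SLP-76), an adaptor of the T cell receptor, was lower at a log2 fold change of -0.47 ± 0.14 (SE), and Csk, a kinase that restrains Src kinases, at -0.40. The third in each direction, Sh3bp2 and Vav2, were named after their values were seen. The kinases that bind the DAP12 motif differed in level, Zap70 at 66.4 to 83.5 FPKM and Syk at 1.40 to 2.12 FPKM. Of 12 other receptors that signal through DAP12 in myeloid cells, 2 of 11 in the files were tested and 0 were higher or lower at an unadjusted p under 0.05.

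Of 13 further NK surface regulators, 10 were tested. At an unadjusted p under 0.05, 2 were higher and 1 lower, against 7.6% and 9.81% of all genes tested. The number lower is near that share. Cd244 (2B4) had 22.9, 16.0 and 18.8 FPKM against 8.21, 14.6 and 11.4 FPKM, a log2 fold change of 0.72 ± 0.22 (SE). Crtam, an adhesion receptor, had 7.35, 2.81 and 3.71 FPKM against 0.498, 1.81 and 2.56 FPKM, a log2 fold change of 1.11 ± 0.43 (SE). Itga2, which encodes CD49b, had 8.12, 7.79 and 7.88 FPKM against 10.6, 13.3 and 12.8 FPKM, a log2 fold change of -0.57 ± 0.10 (SE). Its protein was a sort marker in both groups. With 1 library left out at a time, the unadjusted p of Klra7, Klra1, Clec2i, Sh2d1b1, Bcl10 and Itga2 stayed under 0.05 in 6 of 6 fits, that of Cd244 in 5, that of B2m and Lcp2 in 3, and that of Csk and Crtam in 2.

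**Figure D4:**
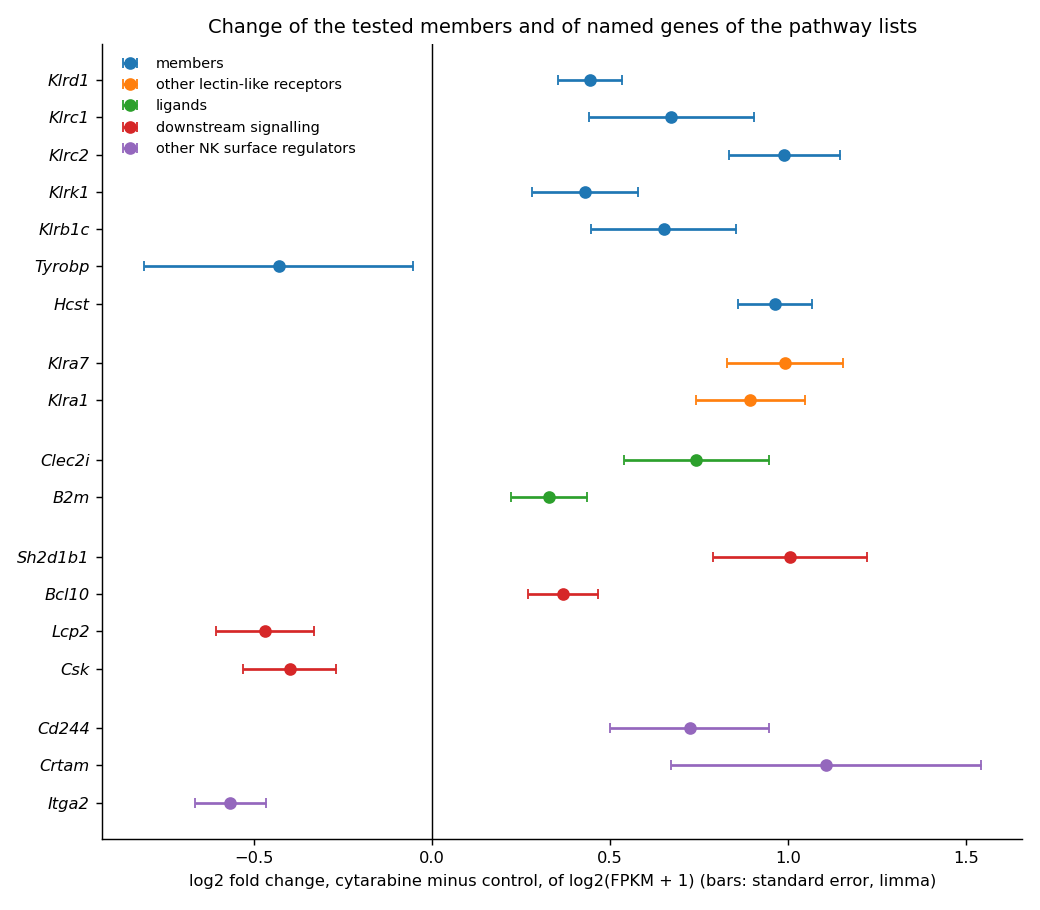
Log2 fold change, cytarabine minus control on log2(FPKM + 1), with its standard error from limma, for the 7 members tested and the named genes of each pathway list, coloured by list. Klrc2 and Hcst lie near 1, Klrd1 at 0.44 and Klrk1 at 0.43, and Tyrobp at -0.43 has the widest error of the 7.

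The 12 markers of NK cells on the list, which include the members Klrb1c and Ncr1, were summed at 15.39 to 24.07 FPKM with cytarabine and 5.35 to 9.3 FPKM in controls. Of the 12, 7, among them Ncr1, the transcription factors Eomes and Tbx21, and Klra8, were under 1 FPKM in every library, and Klra4 was listed at 0 in all 6. Of the 5 tested, 4 were higher at an unadjusted p under 0.05 and 0 lower, against 7.6% and 9.81% of all genes tested. The median log2 fold change was 0.99. Without the members 3 of 4 were higher at that level, with a median of 1.03. Gzmb and Prf1, at means of 0.341 and 0.719 FPKM in controls, passed the filter only through the cytarabine libraries. The filter thus fixed their direction, and these counts and medians are a description. The granzyme gene Gzma had 7.49, 3.85 and 2.56 FPKM against 1.04, 1.56 and 1.03 FPKM, a log2 fold change of 1.26. Gzmb had 2.71, 0.697 and 2.28 FPKM against 0, 0.665 and 0.358 FPKM, a log2 fold change of 1.06. The unadjusted p of Gzmb stayed under 0.05 in 8 of 14 alternative fits. The perforin gene Prf1, at an unadjusted p of 0.0976, had 3.79, 1.197 and 1.25 FPKM against 0.454, 1.00 and 0.702 FPKM. The 12 T cell markers in the files were summed at 718.58 to 941.05 FPKM with cytarabine and 810.98 to 980.34 FPKM in controls, a sum that Cd3g dominates. Of the 6 tested, 3 were higher at an unadjusted p under 0.05 and 0 lower, against 7.6% and 9.81% of all genes tested. The 3 are named after their values were seen. The costimulatory receptor gene Cd28 had a log2 fold change of 1.29 ± 0.11 (SE). The CD3 chain gene Cd3d was at 0.86 ± 0.14 (SE) and the interleukin 7 receptor gene Il7r at 0.66 ± 0.11 (SE). Cd3g was at -0.24 and Cd3e at -0.29, with groups that overlapped. The part of admixed host NK or T cells in the member values was not tested.

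The genes whose centred profile over the 6 libraries lay nearest to that of Klrd1, by root mean square difference on the log2 scale, were Dgkh at 0.0489, Fhl2 at 0.0629, Epm2aip1 at 0.0645, Pex16 at 0.0667 and Zik1 at 0.073. Among the members, Klrk1 was nearest, at 0.163 and rank 456 of 11702 genes, and Tyrobp farthest, at rank 10132.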

How the data were processed

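RNA of sorted C1498 cells from 3 cytarabine-treated and 3 control mice was analysed. Per the labels and methods, single-end reads of 75 bases were mapped by the authors to mm10 (TopHat2 2.0.13, Bowtie2 2.2.3, SAMtools 0.1.19), and FPKM per gene were calculated by the authors with Cufflinks 2.2.1. The annotation and options used are not given in the sources used here. Libraries were grouped by the sample labels.

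The deposited FPKM were transformed to log2(FPKM + 1), and genes averaging 1 FPKM or more were fitted with limma 3.58.1 in R 4.3.3 (lmFit, eBayes with trend, two-sided tests, Benjamini-Hochberg p-values over all genes tested). On this scale the change of a low gene is understated. The step was run on simulated data with independent noise in each gene. Those data held no variation shared between genes, such as the colon division, so they cannot show how the step deals with it. Depth was inferred from the FPKM steps of 2745 genes with 1 transcript, assuming 200-base fragments, and 75.3% to 80.8% of low values fell within 0.1 reads of a whole number, so no count test was run. Positions and coding sequence are from GENCODE on GRCm38 and promoters from RefSeq GRCm38.p6. No library pair shared identical values. Nothing says whether the spread between mice includes technical spread.

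Named genes were the members, up to 2 genes in each direction with the smallest p of each pathway list, the NK markers, the most abundant gene of each cell type list and the 5 genes nearest to Klrd1. The members and lists were chosen with earlier results of these data known. Alternatives were another pseudocount, other filters, scalings and eBayes settings, a replicate block, the colon division as a block, and leaving out each library. Plots were made in Python 3.11.15 (matplotlib 3.10.9).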

Additional observations from a re-analysis of the deposited data

How the results depend on the processing

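Across 118 alternative values of the members, 0 changed direction and 116 kept their side of an adjusted p of 0.05. The other 2, Klrc2 and Hcst with the colon division as a block, passed it. Of these values Klre1 had 1 and Klrg1 and Ncr1 had 0. The differences within each side of the colon division are not among them. There Tyrobp was at -0.593 with little and 0.169 with much colon transcript, and Ncr1 at -0.07 and 0.137. The number of genes at an adjusted p under 0.05, 0 as reported, was 1 with a pseudocount of 0.1, 2 with eBayes without the trend, 1 with robust eBayes, 379 with the colon division as a block and 0 to 6 when 1 library was left out. The number at an unadjusted p under 0.05, 2038 as reported, was 1176 to 4111 when 1 library was left out. The members at that level, 6 as reported, were 3 to 6 when 1 library was left out, both in either direction and for higher alone. As reported, 6 of 10 members had groups that did not overlap in either direction, beside 23.8% of all genes tested. The 10 include Klre1, Klrg1 and Ncr1, which were under the filter, whereas the shares cover only genes that passed it. The count was 4 with quantile normalization (20.7% of genes), 6 to 8 when 1 library was left out (28.9% to 55.8%), 9 between the libraries with little colon transcript (73.7%) and 10 between those with much (82%), where 1 library faces 2 and most genes do not overlap.

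The labels give both groups the numbers 1 to 3 but do not say that the numbers pair the mice. The deviations of same-numbered libraries correlated at -0.709, -0.247 and -0.594. Such deviations also carry the colon division, so they cannot decide whether mice were paired. With the replicate block, 994 genes were at an unadjusted p under 0.05 and 0 at an adjusted one, and 4 members stayed at that level, without Klrc1 at 0.0599 and Klrb1c at 0.0668. No result was printed as paired.

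Of 466 values of the other named genes, 454 kept their direction and side, 8 passed an adjusted p of 0.05 and 4 changed sign. Cd79a, at 0.06, was -0.15 with quantile normalization, -0.012 with the colon division as a block and -0.34 to 0.28 when 1 library was left out, and Hba-a1, at 0.65, was -0.22 to 1.19 when 1 library was left out. The causes were not tested. Depth limits Klrg1 and Ncr1, which rest on a few inferred reads per library.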
